A study of Homo sapiens with 16 samples.

Results

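The difference between arm CL and arm CC that is common to the numbers zdna1, zdna2 and zdna3 was estimated from all 12 libraries whose titles carry one of these numbers, of 16 libraries in the series. The libraries were made from total RNA of U2OS cells, an established line from a human osteosarcoma. The titles cross each number with an arm, CC or CL, in 2 replicates, which gives 6 CL and 6 CC libraries. The labels define neither the arms nor the numbers and name no genotype, drug, dose or time, so neither arm is called a control and each difference is that of CL relative to CC. MYC, FACT and Z-DNA appear in the title of the series. The 4 libraries of zdna4 were left out because silent genes hold an even background of reads in its CC libraries: the 423 olfactory receptor genes summed to 1500 and 1541 CPM there, against 63.6 to 420.3 CPM in the 12 libraries used. The labels do not say whether replicates came from separate cultures. The p-values therefore measure the spread between these libraries, which may be technical and which the main fit draws in part from other genes.

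MYC is a transcription factor that binds DNA together with its partner MAX and acts on genes read by RNA polymerases I, II and III. FACT, made of SUPT16H and SSRP1, is a histone chaperone that opens nucleosomes in front of a moving polymerase. Z-DNA is a left-handed DNA duplex, favoured by the negative supercoiling behind a polymerase, which topoisomerases relieve. RNA polymerase III makes short structured RNAs: 7SL, the scaffold of the signal recognition particle that brings ribosomes to the endoplasmic reticulum; RMRP and RPPH1, the RNA subunits of the ribonucleases MRP and P, which process ribosomal RNA and transfer RNA precursors; and 7SK, which holds the elongation factor P-TEFb inactive.

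The sequence of RMRP is shown because it had the smallest p of all genes tested. It is that of GENCODE release 29 on GRCh38, written 5′ to 3′ in lower case with T for U.
RMRP (minus strand, chr9:35657751-35658018): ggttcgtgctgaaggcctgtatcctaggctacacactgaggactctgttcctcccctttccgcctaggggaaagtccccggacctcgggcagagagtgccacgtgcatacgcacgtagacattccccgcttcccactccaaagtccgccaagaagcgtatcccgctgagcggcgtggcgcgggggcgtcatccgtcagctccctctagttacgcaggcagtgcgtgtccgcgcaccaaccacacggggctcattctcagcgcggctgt
The 7SL genes RN7SL1 and RN7SL2 are near-identical copies, so the split of 7SL reads between them is uncertain.

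The 12 libraries held 42494 to 170980 reads assigned to human genes, fewest in zdna3 CC. Human-gene reads were higher in CL over the numbers (exact permutation test within numbers, two-sided p = 0.0463, adjusted over 2 such tests 0.0463). In zdna1 they overlapped, at 111166 and 170980 in CC and 144658 and 157328 in CL. Each number's reference holds 1 extra sequence, the contig. Its reads per 1000 human-gene reads were 361 ± 20.3 (SD, n = 2) in zdna1 CC and 3.66 ± 0.554 in zdna1 CL, 1769 ± 47.8 and 1538 ± 49.9 in zdna2, and 7028 ± 106.8 and 268.7 ± 9.33 in zdna3, lower in CL each time (exact permutation test, p = 0.00926, the smallest that 216 arrangements allow; adjusted p = 0.0185). The contig held 87.42% to 87.66% of assigned reads in zdna3 CC and 20.77% to 21.59% in zdna3 CL, so human-gene reads are not total depth. The contig and, over the numbers, the human-gene reads moved with the arm. Their part in the results below was not tested. Of the markers of the labelled line, VIM at 1652, FN1 at 1772, COL1A1 at 844.4 and SPARC at 813.9 mean CPM were abundant, while the osteoblast genes SP7, BGLAP and IBSP and the tumour suppressor CDKN2A had 0 reads. Summed markers of other cell types reached at most 48.6 CPM for epithelial, 36.5 for blood, 40.5 for muscle, 60.7 for neural and 95.4 for endothelial cells. The 4 hepatocyte markers summed to 78 to 143.1 CPM in CC and 63.7 to 156.4 in CL, nearly all from SERPINA1 (mean 114.3 CPM), with APOA1 and TTR at 0 reads.

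The 4620 human genes that averaged 50 CPM or more were tested, with reads scaled to a common total of human-gene reads by TMM factors. In the fit of a single arm effect with the number as a block, 3 genes were called higher in CL and 0 lower. The 3 were the RNase MRP RNA RMRP, the 7SL gene RN7SL1 and THBS1, which encodes thrombospondin 1, a secreted matrix glycoprotein. They make up 0.0649% of the genes tested (limma on log2 of CPM plus 10, Benjamini-Hochberg adjusted p under 0.05, two-sided). The units of this test are libraries and not numbers, so a call need not hold in each number. RN7SL1 was lower in CL in zdna3. Without adjustment 306 genes (6.62%) had p under 0.05, of which 177 (3.83%) were higher and 129 (2.79%) lower in CL. On the recovered reads edgeR's quasi-likelihood test also called 3 genes, RMRP, THBS1 and HIC1, and DESeq2 called 0, with 97 genes at an unadjusted p under 0.05. All 3 calls lie among the 62 genes at 1000 CPM or more. In total RNA, a change in RNA per cell cannot be told apart from a change in the share of cells that make it.

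RMRP (268 bases, chr9:35657748-35658015, minus strand, hg19) had 3397 and 3519 CPM in the zdna1 CC libraries and 5761 and 5506 in zdna1 CL. For zdna2 the CC libraries held 2396 and 2425 and the CL libraries 3122 and 3389 CPM. In zdna3 the arms overlapped, with 4139 and 3984 CPM in CC and 4339 and 4021 in CL. Thus CL lay above CC without overlap in 2 numbers, and the third showed almost no difference. The shared log2 difference was 0.48 (SE 0.0715, 95% interval 0.33 to 0.62, limma adjusted p = 9.65e-05, higher in 3 of 3 numbers), made of 0.70 (SE 0.0700) in zdna1, 0.43 (SE 0.0710) in zdna2 and 0.04 (SE 0.112) in zdna3. These 3 differences were themselves unequal (limma F test, adjusted p = 0.0133). The edgeR fit gave a log2 difference of 0.42 (edgeR adjusted p = 0.00141), and DESeq2 one of 0.41 that did not pass (DESeq2 adjusted p = 0.105).

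RN7SL1 (299 bases, chr14:50053298-50053596, plus strand, hg19) was the gene with the largest shared difference among the 3 calls and also the one whose numbers differed most clearly. It had 4544 and 4802 CPM in zdna1 CC and 9879 and 10649 in zdna1 CL. In zdna2 it stood at 4032 and 3579 CPM in CC and 5225 and 5484 in CL. The order turned round in zdna3, where CC held 8077 and 9782 CPM and CL 6177 and 5989. No number showed overlap between its arms, but the direction in zdna3 was opposite to that in zdna1 and zdna2. The shared log2 difference of 0.58 (SE 0.102, 95% interval 0.37 to 0.78, limma adjusted p = 0.00168, higher in 2 of 3 numbers) combines 1.13 in zdna1, 0.49 in zdna2 and -0.55 in zdna3 (limma F test for unequal differences, adjusted p = 9.03e-14). With edgeR its adjusted p was 0.0517.

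The near-identical RN7SL2 (chr14:50329269-50329567, minus strand, hg19) kept the same order of numbers with smaller differences. Its CC libraries had 6480 and 6571 CPM in zdna1, 5238 and 5497 in zdna2 and 10319 and 11118 in zdna3. The CL libraries had 9190 and 8694, 5656 and 6198, and 9604 and 8868 CPM. Again the arms did not overlap in any number, with CL above CC in zdna1 and zdna2 and below it in zdna3. The shared log2 difference was 0.21 (SE 0.0644, limma adjusted p = 0.294) and did not pass, while the differences of 0.45, 0.14 and -0.21 in zdna1, zdna2 and zdna3 were unequal (limma F test, adjusted p = 0.00037).

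THBS1 (chr15:39873280-39891667, plus strand, hg19) was the only protein-coding gene called. It had 1040 and 838 CPM in zdna1 CC and 1468 and 1532 in zdna1 CL. The zdna2 libraries held 925 and 967 CPM in CC and 1310 and 1264 in CL. Levels in zdna3 were higher in both arms and overlapped, with 2607 and 2744 CPM in CC and 2971 and 2612 in CL. The shared log2 difference was 0.47 (SE 0.0873, 95% interval 0.30 to 0.65, limma adjusted p = 0.00268, higher in 3 of 3 numbers), from 0.68 in zdna1, 0.44 in zdna2 and 0.06 in zdna3. Unequal differences were not shown for THBS1 (limma F test, adjusted p = 0.383). Differences between the numbers took 85.1% of its sum of squares over the 12 libraries and the shared arm difference 9.41%, against 58.7% and 27.1% for RMRP.

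**Figure D1:**
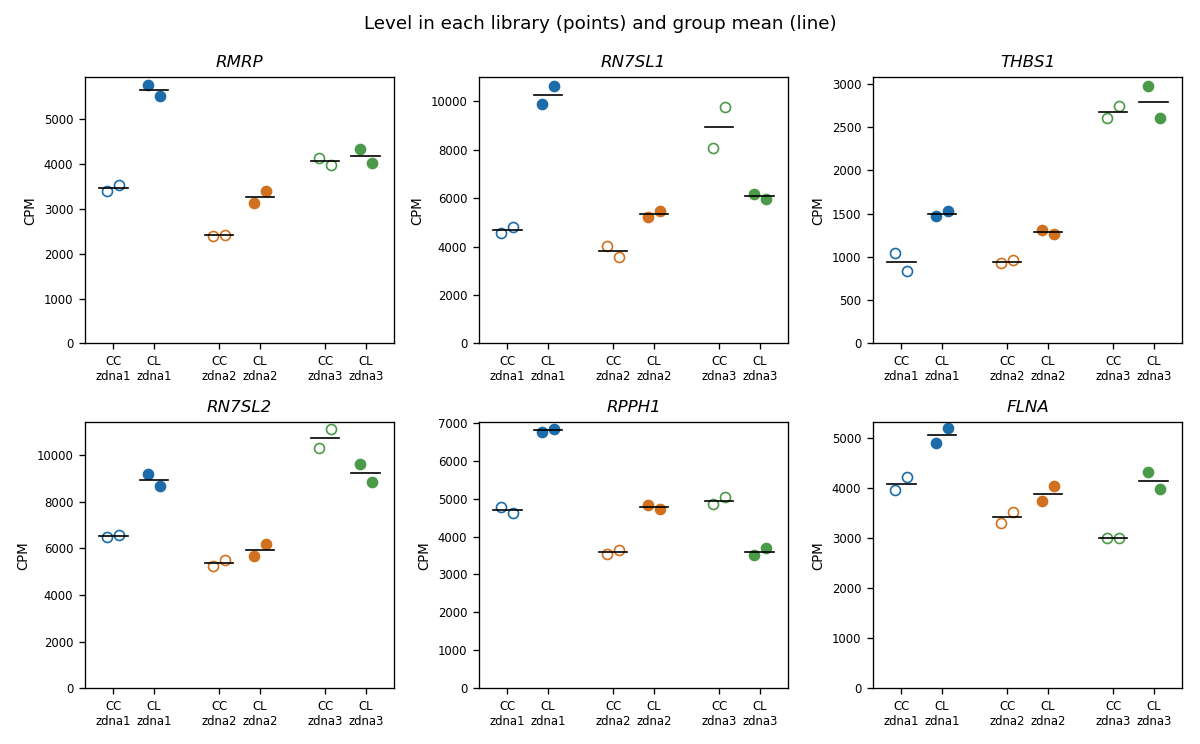
CPM per library (points; open, CC; filled, CL) and group means (lines) for 6 genes in zdna1, zdna2 and zdna3, on linear axes from 0. RMRP and THBS1 separate the arms in zdna1 and zdna2 but overlap in zdna3, RN7SL1, RN7SL2 and RPPH1 turn round in zdna3, and FLNA is higher in CL in each number.

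The weight given to each number bears on these 3 genes. Array weights, estimated per group, were 0.441 for zdna3 CC and 0.748 for zdna3 CL, so that zdna1 supplied 41.5%, zdna2 41.1% and zdna3 17.5% of the shared estimate. With each number weighted alike, as an average of the 3 differences, the log2 difference was 0.39 for RMRP, 0.36 for RN7SL1 and 0.39 for THBS1. Without array weights 0 genes passed (limma adjusted p = 0.0926 for RMRP, 0.752 for RN7SL1 and 0.258 for THBS1), and without zdna1 also 0 (0.23, 0.879 and 0.384). The fit that averaged the 6 group means also weights the numbers alike, but its error term holds only the spread within groups. That fit did call genes, so the error term as well as the weights bears on the count. Leaving out a single library of zdna1 took RN7SL1 out of the calls in each of 4 fits (limma adjusted p from 0.0919 to 0.172) and THBS1 in 3 of 4, whereas RMRP passed in all 12 fits that left out 1 library.

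Beyond the 3 calls, the genes with the smallest p are given up to 20, and none of these others passed. Closest were UBQLN4, which encodes a ubiquilin that carries proteins to the proteasome, and FLNA, which encodes the actin-crosslinking protein filamin A, both with a limma adjusted p of 0.0528. UBQLN4 (chr1:156005090-156023589, hg19) had 71.7 and 46.2 CPM in zdna1 CC and 126 and 123 in CL, 33.0 and 54.6 against 120 and 99.5 in zdna2, and 146 and 47.7 against 182 and 158 in zdna3. FLNA (chrX:153576899-153603006, hg19) had 3961 and 4224 CPM in zdna1 CC and 4904 and 5208 in CL, 3297 and 3532 against 3745 and 4039 in zdna2, and 3008 and 3006 against 4313 and 3984 in zdna3. Both genes separated the arms in each number, in the same direction. For UBQLN4 the separation rested on few reads in CC, with 33.0 CPM in 1 zdna2 library and 47.7 CPM in 1 zdna3 library. The log2 differences were 1.06 (SE 0.237, 95% interval 0.58 to 1.53) for UBQLN4, with 0.99, 1.18 and 0.92 in zdna1, zdna2 and zdna3, and 0.28 (SE 0.0646, 95% interval 0.15 to 0.41) for FLNA, with 0.30, 0.19 and 0.46. UBQLN4 passed in 8 of 30 alternative fits and FLNA in 11 of 31.

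Other cytoskeletal genes stood among these 20. CNN2, which encodes the actin-binding calponin 2, had a log2 difference of 0.79 (SE 0.201, limma adjusted p = 0.154), with CC at 179 and 121, 90.9 and 93.6, and 54.7 and 47.7 CPM and CL at 309 and 279, 149 and 123, and 117 and 121 CPM in zdna1, zdna2 and zdna3. TPM2, which encodes a tropomyosin that lies along actin filaments, differed by 0.49 (SE 0.139, limma adjusted p = 0.23), by 0.41, 0.50 and 0.64 in the 3 numbers. The libraries of both genes separated by arm in each number. For CNN2 the separation in zdna3 rested on few reads, with 54.7 and 47.7 CPM in zdna3 CC. ITGA3, the alpha chain of a laminin receptor, differed by 0.45 and overlapped in zdna2 and zdna3.

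Among the genes of RNA handling, the shared difference was 0.56 for SNORD33, a small nucleolar RNA that guides methylation of ribosomal RNA (SE 0.137, limma adjusted p = 0.113). Its CC libraries had 520 and 445, 223 and 273, and 146 and 167 CPM, and its CL libraries 766 and 571, 361 and 351, and 326 and 292 CPM, with no overlap in any number. SNORD33 lies in an intron of RPL13A, a ribosomal protein gene whose log2 difference was 0.00, and unstranded counting cannot separate it from unspliced host RNA. RPPH1 differed by 0.31 (SE 0.0779, limma adjusted p = 0.152). Its CC and CL levels were 4786 and 4623 against 6759 and 6844 CPM in zdna1, 3536 and 3649 against 4842 and 4718 in zdna2, and 4850 and 5034 against 3505 and 3693 in zdna3. As for RN7SL1, the arms did not overlap and zdna3 ran the other way. ZC3H7B, a zinc finger protein that binds microRNA precursors, differed by 0.62.

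Of the 20, 3 were lower in CL. XRCC6, the Ku70 subunit that holds broken DNA ends in end joining, had the most even differences of these 20: -0.38, -0.35 and -0.38 in zdna1, zdna2 and zdna3, for a shared log2 difference of -0.37 (SE 0.102, 95% interval -0.57 to -0.16, limma adjusted p = 0.225). Its CC libraries held 744 and 734, 868 and 834, and 839 and 1097 CPM and its CL libraries 541 and 591, 588 and 749, and 782 and 692 CPM. CL thus lay below CC without overlap each time. YTHDF2, a reader of methylated adenosine that sends mRNA to decay, differed by -0.75 (limma adjusted p = 0.225), and MGA, a MAX partner that opposes MYC, by -0.52 (limma adjusted p = 0.253). Both overlapped in zdna3.

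The other genes of the 20 were higher in CL, and HIC1, COL27A1 and HSPA8 rested more on single numbers or libraries. HIC1, a transcriptional repressor, had the largest log2 difference, 2.12 (SE 0.577, limma adjusted p = 0.225; edgeR adjusted p = 0.000262), but few reads. It had 0 and 23 reads in zdna1 CC and 45 and 34 in CL, 0 and 0 against 1 and 26 in zdna2, and 0 and 1 against 1 and 0 in zdna3. COL27A1, a fibrillar collagen gene, differed by 0.86, of which zdna2 gave 1.70 and zdna3 0.05. HSPA8, a constitutive chaperone, differed by 0.32 and ran from 0.63 in zdna1 to -0.11 in zdna3. FANCI, of the Fanconi anaemia repair pathway, differed by 0.78 and EXTL3, a heparan sulphate synthesis enzyme, by 0.52. Both separated the arms in each number. The differences in zdna1, zdna2 and zdna3 were 0.78, 0.88 and 0.52 for FANCI and 0.89, 0.26 and 0.26 for EXTL3.

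**Figure D2:**
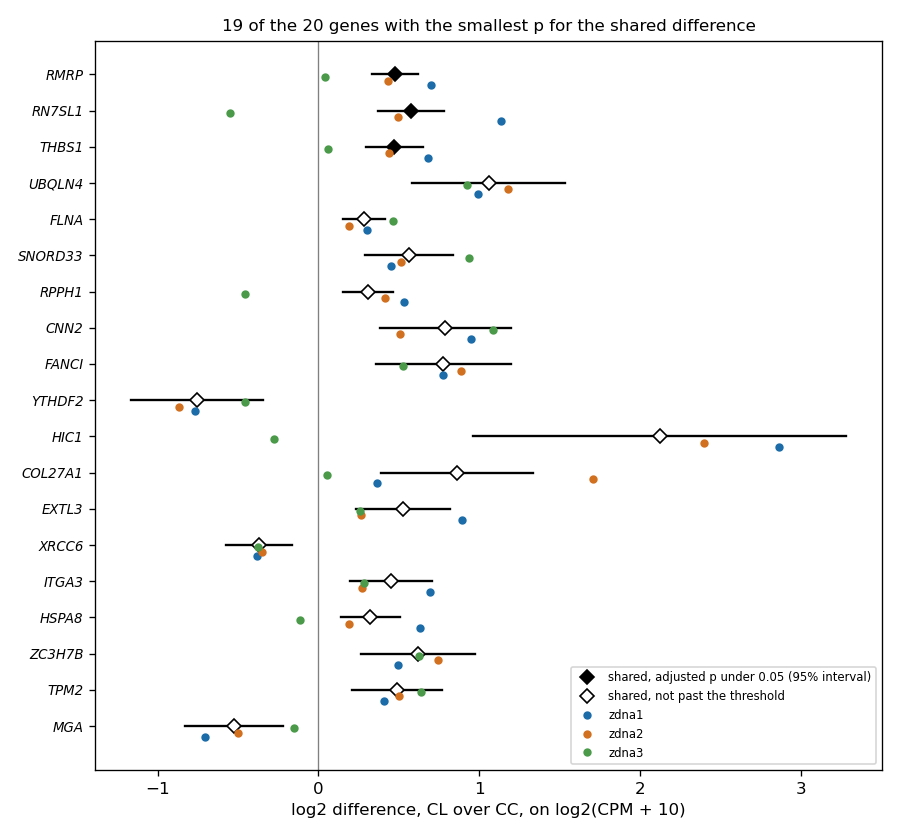
Shared log2 difference of CL over CC (diamonds; filled where the adjusted p is under 0.05) with its 95% interval for 19 of the 20 genes with the smallest p, and the difference in each number (coloured points). XRCC6 holds its 3 numbers closest together, while RN7SL1 and RPPH1 have zdna3 on the other side of 0.

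A single arm effect did not describe every gene. The 3 CL over CC differences were unequal for 21 genes, 0.455% of those tested (limma F test on 6 group means, adjusted p under 0.05), against the 3 of the shared effect. RMRP and RN7SL1 belong to both sets. On the recovered reads edgeR called 27 unequal genes (0.584%), which included all 21, and DESeq2 called 6, with 4299 adjusted p-values not given by its filter. By level, the calls were 12 of 62 genes at 1000 CPM or more, 7 of 887 from 200 to 1000 CPM and 2 of 3671 below. The 21 included RN7SL1, RPPH1, RN7SL2, RMRP and the 5S ribosomal RNA gene RNA5S9 of RNA polymerase III. The spliceosomal RNAs RNU5E-1, RNU12 and RNU4-2 were also called. All of these small RNAs but RNA5S9 and RNU12 averaged 1000 CPM or more. The share of small RNAs among all genes tested was not counted. In each of these small RNAs the log2 difference was higher in zdna1 than in zdna3.

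RPPH1 followed RN7SL1 in rank, with log2 differences of 0.53, 0.41 and -0.46 in zdna1, zdna2 and zdna3 (limma F test, adjusted p = 9.9e-07). RNU5E-1, the RNA of the U5 particle, hardly differed in zdna1 (0.12) and zdna2 (0.00) but was lower in zdna3 CL, at 1303 and 1591 CPM against 2516 and 2791 in CC, a difference of -0.88 (limma F test, adjusted p = 0.00534). For RNU12, of the minor spliceosome, the differences were -0.01, -0.01 and -1.51, with 711 and 763 CPM in zdna3 CC and 326 and 194 in CL. Both RNAs were set apart by zdna3. RNU4-2 had 0.33, 0.02 and -0.44, and RNA5S9 had 1.22, -0.29 and -0.85. The 5S and U4 RNAs exist in near-identical gene copies, so their counts are uncertain.

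The other genes among the first 10 encode proteins of varied roles. IGFBP5, which encodes a secreted binding protein for insulin-like growth factors, had 89.6 and 150 CPM in zdna1 CC and 316 and 448 in CL, but 240 and 172 in zdna2 CC and 113 and 146 in CL, log2 differences of 1.61 and -0.62, with -0.02 in zdna3 (limma F test, adjusted p = 0.00235). SYNE1, a nuclear envelope spectrin-repeat protein, ran the other way, at -1.67 in zdna1 and 0.42 in zdna2 (limma F test, adjusted p = 0.00546). AHNAK, a giant scaffold protein under the membrane, had 0.31, -0.37 and 0.09 (adjusted p = 0.00341 by the same limma test). FLNC, the filamin of muscle, had -0.37, 0.18 and 0.37 (limma adjusted p = 0.0061), whereas FLNA was higher in CL in each number. TUBB, a beta tubulin, had 0.53, -0.11 and -0.19 (limma adjusted p = 0.0105), and GADD45A, a stress-induced p53 target, -0.99, 0.72 and 0.29 (limma adjusted p = 0.0133).

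The remaining unequal genes beyond the first 10 are named here after their values were seen. The glycolytic enzyme gene LDHA (0.08, -0.58 and 0.09) and NDRG1, a gene induced by low oxygen (-0.13, -1.03 and 0.60), were lowest in zdna2. CCND2, a G1 cyclin, had 0.12, -0.49 and 0.71, and PPP1R14B, a phosphatase inhibitor, 0.57, -0.81 and 2.04. TRIO, an exchange factor for small GTPases, stood at -0.74 in zdna1 and near 0 elsewhere (-0.01 and 0.12), RPL4, a protein of the large ribosomal subunit, at -0.32, 0.27 and 0.34, and LRBA, a vesicle-trafficking scaffold, at -0.12, -1.14 and 2.74. LRBA rested on few reads, with 0 and 23.9 CPM in zdna3 CC.

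**Figure D3:**
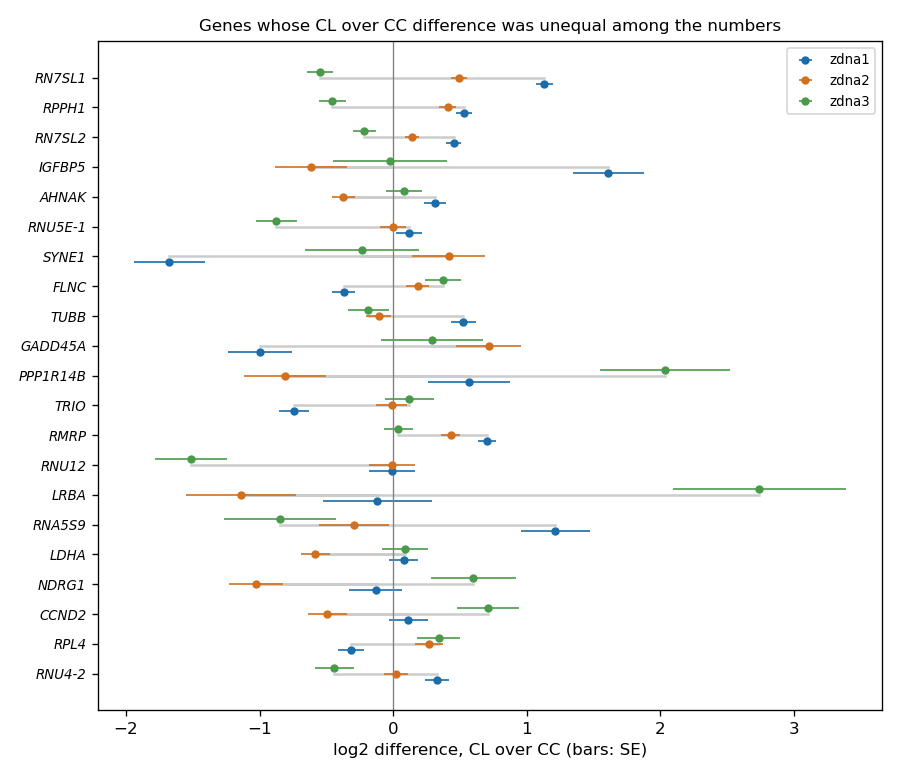
Log2 difference of CL over CC in zdna1, zdna2 and zdna3 (points, with SE bars) for the 21 genes with unequal differences, ordered by p. RN7SL1, at the top, spans 1.13 in zdna1 to -0.55 in zdna3.

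The arm differences of the 3 numbers were set beside each other across all 4620 genes. The sign was the same in the 3 numbers for 1106 genes (23.9%), of which 575 were higher and 531 lower in CL. The Pearson correlation of the differences across genes, a description over genes that share libraries and are not independent, was -0.025 for zdna1 with zdna2, 0.011 for zdna1 with zdna3 and 0.019 for zdna2 with zdna3. Over the 62 genes at 1000 CPM or more it was 0.31, -0.26 and -0.19, and the rank correlation was 0.19, -0.19 and -0.18. CL lay above CC without overlap in each of the 3 numbers for 35 genes (0.758%) and below for 19 (0.411%). Among the genes named above, UBQLN4, FLNA, SNORD33, CNN2, FANCI, EXTL3, ZC3H7B and TPM2 were of the first kind and XRCC6 of the second. UBQLN4 and CNN2 had few reads in zdna3 CC.

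**Figure D4:**
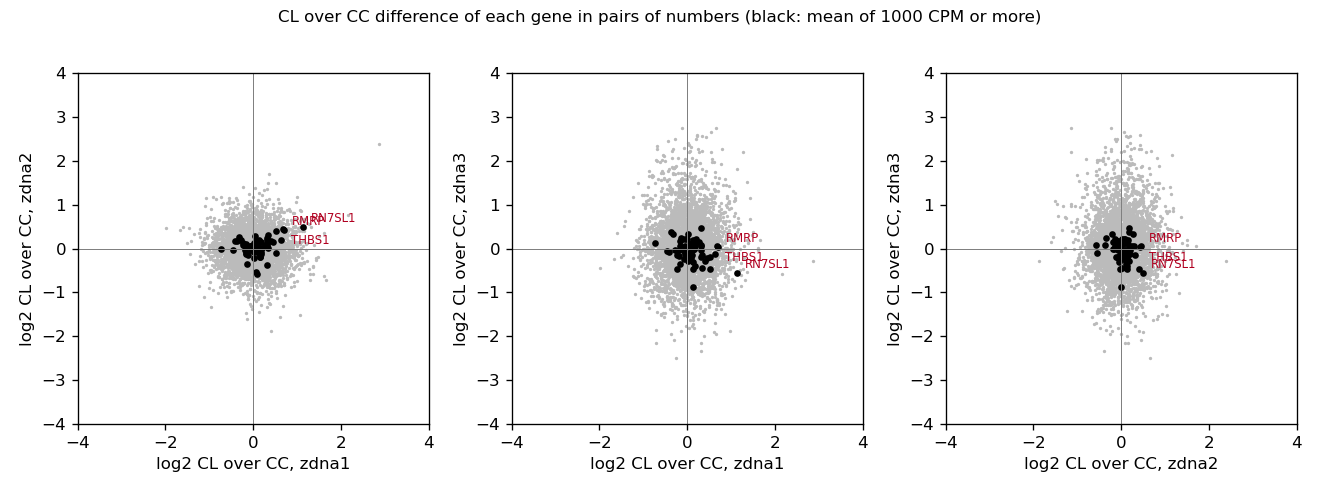
Log2 difference of CL over CC of each of the 4620 genes (grey) and of the 62 genes at 1000 CPM or more (black), for the 3 pairs of numbers on equal axes. The clouds are centred on 0 with no common slope over all genes (r from -0.025 to 0.019), and are tallest for zdna3, which has the fewest reads.

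For the 949 genes at 200 CPM or more, the median share of the sum of squares over the 12 libraries was 35.8% for the number, 4.38% for the shared arm difference, 13% for the arm difference that varied with the number and 34.6% within groups. FLNA had 44.5% for the shared arm difference and 5.54% for the varying one, and XRCC6 had 48.4% and 0.0511%. Both genes were named for a small p of the shared difference in the same libraries, and XRCC6 was singled out for its even differences. A large shared share follows from that choice, so their distance from these medians is not a separate result. In RN7SL1 the varying share was 46.8% and the shared one 12.7%. The parts have unequal degrees of freedom, fewest for the shared arm difference, so the sizes of the shares alone do not rank them. The depth sets how small a shared difference could be seen. The median SE of the shared difference was 0.259 in the 3671 genes under 200 CPM, 0.148 in the 887 genes from 200 to 1000 CPM and 0.0872 in the 62 above. The 95% interval lay within 1 log2 unit on either side of 0 for 4162 genes (90.1%) and within 0.5 for 1146 (24.8%).

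The proteins of the series title did not pass the test. MYC had 340.6 and 410.3 CPM in zdna1 CC and 351.3 and 233.8 in CL, 421.4 and 421.1 against 446 and 351.2 in zdna2, and 929.8 and 1121 against 951.3 and 1057 in zdna3. The arms of MYC overlapped in every number, while zdna3 stood above the other two in both arms. Its shared log2 difference was -0.19 (SE 0.122, 95% interval -0.44 to 0.05, limma adjusted p = 0.774). MAX, the partner of MYC, differed by 0.42 (SE 0.272), with 1.09 in zdna2, and by 0.0984 without zdna2 CC replicate 2; over the 12 fits that left out 1 library it ran from there to 0.654. The FACT subunits SUPT16H and SSRP1 differed by -0.19 (95% interval -0.46 to 0.08) and -0.17 (95% interval -0.41 to 0.07), both with a limma adjusted p of 0.815. Leaving out 1 library gave -0.265 to -0.0619 for MYC, -0.236 to -0.0897 for SUPT16H and -0.223 to -0.0835 for SSRP1. Of the proteins that bind Z-form nucleic acids, the RNA-editing enzyme ADAR differed by -0.04 (95% interval -0.31 to 0.23; -0.0968 to 0.0632 with 1 library left out), and ZBP1, a sensor of Z-RNA, was under the level filter.

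HMGB1, a DNA-bending chromatin protein, was higher in CL in each number without overlap. It had 259.9 and 196.5 CPM in zdna1 CC and 302.1 and 318.2 in CL, 214.8 and 202.7 against 297.3 and 298.5 in zdna2, and 145.9 and 286.3 against 338.8 and 328 in zdna3. Its shared difference of 0.50 (SE 0.149) did not pass (limma adjusted p = 0.294). The list of FACT, HMGB and histone chaperones, from which HMGB1 was picked, had 10 of 21 genes higher and a median of -0.01. Other members, such as HIRA (-0.62), CHD1 (-0.35) and NAP1L1 (-0.24), were lower in each number. Among the topoisomerases, which relieve supercoils, TOP3A differed by 0.10 and TOP1MT by -0.07. The differences were -0.20 (SE 0.182) for TOP1, -0.17 (SE 0.132) for TOP2A and -0.44 (SE 0.193, limma adjusted p = 0.738) for TOP2B. The arms overlapped in at least 1 number for each of TOP1, TOP2A and TOP2B. In zdna1, zdna2 and zdna3 TOP1 had -0.71, 0.10 and 0.32, and TOP2A had 0.22, -0.46 and -0.41. With 1 library left out TOP1 ran from -0.337 to 0.0216, above 0 without zdna1 CC replicate 1, TOP2A from -0.299 to -0.0848 and TOP2B from -0.544 to -0.318. The nuclear long noncoding RNA MALAT1 differed by -0.39 (SE 0.203), from -1.11 in zdna1 to 0.25 in zdna2, and ran from -0.642 without zdna2 CC replicate 1 to -0.141 without zdna1 CC replicate 2. The chromatin remodeller SMARCA5 differed by -0.48. In all, 7 of the 9 tested genes of the list of topoisomerases and supercoiling were lower, with a median of -0.20 (-0.36 to -0.149 relative to all genes with 1 library left out). The list median was -0.02 in zdna1, -0.46 in zdna2 and -0.39 in zdna3.

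The 29 lists of genes by function are described by their counts and medians beside those of all genes tested, whose median was 0.00, with 2311 of 4620 higher. Only 2 lists held a call, the RNA polymerase III transcripts (2 of 8 tested) and the matrix and osteoblast genes (THBS1, 1 of 28). In no list was a gene called lower. Over all genes 3 of 4620 were called (0.0649%), all among the 62 at 1000 CPM or more. The RNA polymerase III list had a median level of 4285 CPM, against 100 over all genes tested. Its calls therefore cannot be told apart from its high level. The medians of 19 lists lay within 0.1 of 0, those of 6 above and those of 4 below. Of the 8 RNA polymerase III transcripts 6 were higher, with a median of 0.27. With 1 library left out it ran from 0.182, without zdna1 CC replicate 2, to 0.363 relative to all genes. The median was 0.62 in zdna1, 0.28 in zdna2 and -0.47 in zdna3. The most abundant of them, RN7SK, had 37697 mean CPM and differed by -0.01 (SE 0.0415, 95% interval -0.10 to 0.07). The minor spliceosomal RNU6ATAC differed by 1.11 (SE 0.343), and RNY1, a partner of the Ro protein, by -0.26 (SE 0.126).

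Of 45 actin cytoskeleton and focal adhesion genes 32 were higher and 13 lower in CL, with a median of 0.13 and 0 calls. ACTB differed by 0.17 (SE 0.0557, limma adjusted p = 0.369), ACTG1 by 0.25 (SE 0.0753, limma adjusted p = 0.294) and PLEC, the linker plectin, by 0.13. The list held 3.64% to 3.81% of human-gene reads in the CC libraries and 3.73% to 4.31% in the CL libraries, without TMM scaling. In each number both CL libraries lay above both CC libraries. Such a split was not particular to this list, since the read share of the topoisomerase list lay lower in CL without overlap in each number. In zdna1 the median of the actin list was 0.26, in zdna2 0.08 and in zdna3 0.05. Tubulins and their partners (11 of 13 higher, median 0.20), cholesterol and fatty acid synthesis (14 of 17, 0.24), the matrix list (20 of 28, 0.15) and YAP and TGF-beta targets (15 of 22, 0.11) also had medians above 0.1. In zdna1, zdna2 and zdna3 the median was 0.28, -0.06 and 0.18 for the matrix list and 0.24, -0.12 and 0.11 for YAP and TGF-beta targets. It was 0.47, 0.12 and 0.11 for the cholesterol list and 0.34, 0.06 and 0.06 for the tubulins. The shared medians moved with single libraries. Relative to all genes and over the 12 fits that left out 1 library, the median ran from 0.0704 to 0.152 for the actin list, from 0.132 to 0.333 for the cholesterol list and from 0.123 to 0.237 for the tubulins. It ran from 0.0598 to 0.192 for the matrix list and from 0.0602 to 0.148 for YAP and TGF-beta targets. The lowest value came on leaving out zdna1 CL replicate 2 for the actin, matrix and YAP lists, zdna1 CC replicate 2 for the cholesterol list and zdna1 CL replicate 1 for the tubulins. In the cholesterol and fatty acid list ACLY, which supplies acetyl-CoA in the cytosol, differed by 0.22 (SE 0.131, limma adjusted p = 0.774) and FASN, the fatty acid synthase, by 0.04 (SE 0.118, limma adjusted p = 0.979). In the matrix list COL1A1 differed by 0.24 and FN1 by -0.03.

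Ribosome biogenesis and nucleolar genes were lower for 38 of 44 tested, with a median of -0.18 and 0 calls. With 1 library left out the median relative to all genes ran from -0.206 to -0.0943, the latter without zdna1 CL replicate 1. The median was -0.35 in zdna1, 0.04 in zdna2 and 0.05 in zdna3, below 0 in zdna1 alone. The abundant nucleolar proteins NCL and NPM1 differed by -0.07 and -0.09. Cytosolic ribosomal proteins, at 33 of 75 higher with a median of -0.02, and translation factors, at 16 of 35 with -0.02, stood near all genes. On the deposited scale, where the median of all genes shifts by 0.196, the medians of the ribosome biogenesis list (0.02) and of the topoisomerase list (-0.0029) are close to 0, and relative to that shift they stay lower. The histone, hypoxia, p53, interferon, proteasome and respiratory chain lists held 0 calls, with medians between -0.11 and 0.01.

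**Figure D5:**
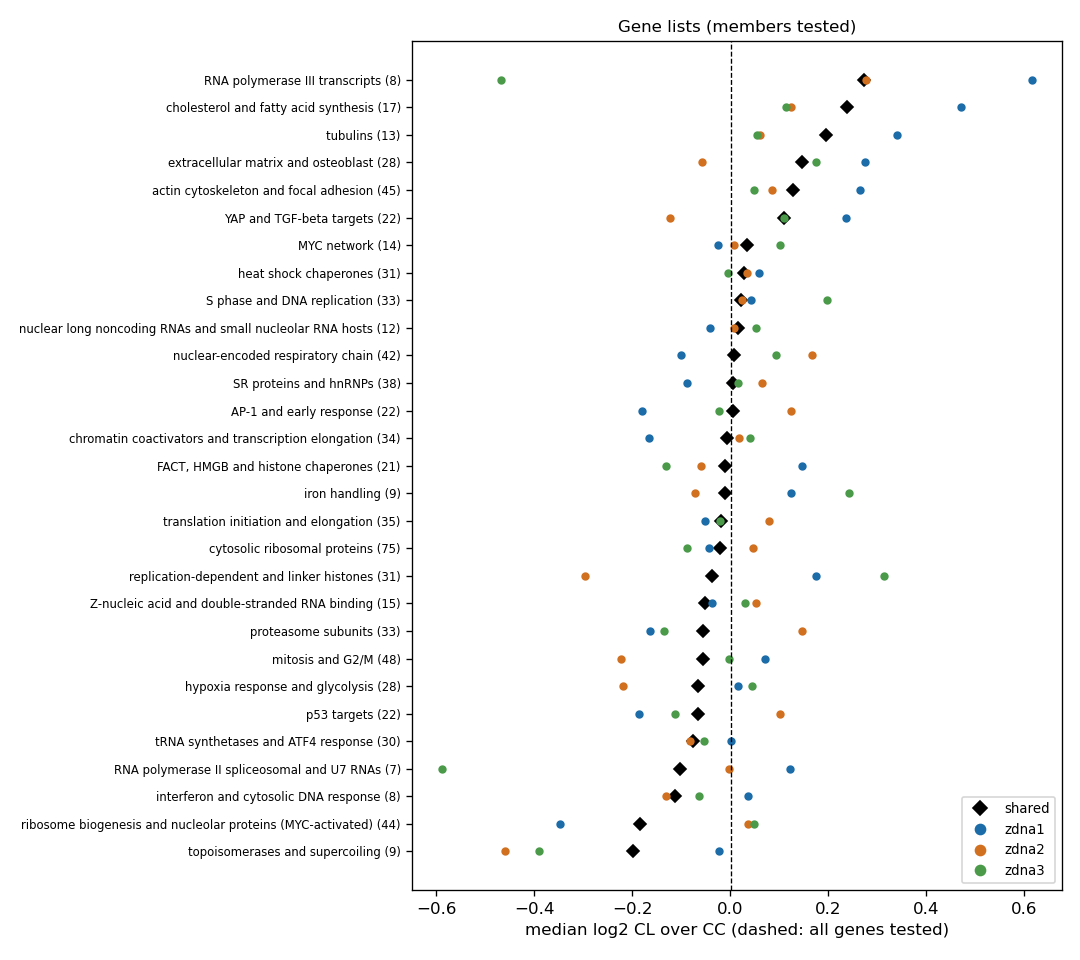
Median log2 difference of CL over CC over the tested members of 29 lists (black diamonds, shared; coloured points, each number), with the number of members in brackets and the median of all genes dashed. The RNA polymerase III list is highest for the shared difference, at 0.27, and spreads from 0.62 in zdna1 to -0.47 in zdna3.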

How the data were processed

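Trim Galore 0.6.6, STAR, bedtools 2.29.2 and the builds hg19 and dm6 are listed, without a role, per the submitters' processing notes. The counter was featureCounts 2.0.1, run on exons in paired mode with hg19 plus the contig and no strand option, per the file headers. RNA was extracted with Trizol, per the labels. The deposited signal takes values in multiples of 1 step per library, as counts times a constant would, and the origin of that constant is not given in the sources used here. Dividing by the smallest step gave whole reads within 0.1 for at least 99.99% of nonzero values in the 12 libraries. Of 28207 human genes, the 4620 with a mean of at least 50 CPM were tested.

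Log2 of CPM plus 10, with TMM factors (edgeR 4.0.16), was fitted with limma 3.58.1 (R 4.3.3; number plus arm; trend; array weights per group), Benjamini-Hochberg at 0.05. A fold on this scale understates changes of low genes. The F test used 6 group means. DESeq2 1.42.0 and edgeR ran on recovered reads. The fits were also run on simulated data. Those data held no differences between the numbers, so they do not show how the fits act where numbers differ. Intervals and limma p-values rest on the spread between libraries, which limma draws in part from other genes of like level. They do not rest on a gene's own libraries alone. Named genes are the calls, the smallest p up to 20, the 10 most unequal, a fixed set and up to 4 members of a list; some of these are not reported here. Members added for illustration (HMGB1, SMARCA5, RNU6ATAC and RNY1) were picked with their values known. The members and lists were chosen with earlier results of these data known. Chi-square tests of counts did not separate the replicates of zdna1 CC, zdna2 CL and zdna3 CC (p = 0.101, 0.279 and 0.743), but the contig's share differed in all 6 pairs (p at most 0.00183), so each was kept.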

Additional observations from a re-analysis of the deposited data

Results flagged for a closer look

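For 10 genes the CL over CC difference was unequal among zdna1, zdna2 and zdna3 by limma's F test, the smallest p-values of 21 called. The adjusted p was 9.03e-14 for RN7SL1, 9.9e-07 for RPPH1, 0.00037 for RN7SL2, 0.00235 for IGFBP5, 0.00341 for AHNAK, 0.00534 for RNU5E-1, 0.00546 for SYNE1, 0.0061 for FLNC, 0.0105 for TUBB and 0.0133 for GADD45A.

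Within an arm's 6 libraries, 2 of the named genes had a library far from the others by Dixon's test. ZC3H7B stood at 93.6 CPM in zdna2 CC replicate 2, and MGA at 201 CPM in zdna3 CC replicate 1. This test flags about 1 in 20 groups by chance, and the 6 libraries of an arm span 3 numbers.

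The contig, which is outside the comparison of human genes, was detected in all 6 groups. Its mean reads per 1000 human-gene reads were 361 in zdna1 CC, 3.66 in zdna1 CL, 1770 in zdna2 CC, 1540 in zdna2 CL, 7030 in zdna3 CC and 269 in zdna3 CL.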

How the results depend on the processing

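The count of 3 genes for the shared difference was the same with edgeR, library totals, DESeq2 size factors and the replicate block. It became 0 with DESeq2, without array weights and without zdna1, 5 with a pseudocount of 2 CPM, with a filter at 200 CPM, with 6 group means averaged and with zdna4 added, 6 with TMM over every human row and with a pseudocount of 30 CPM, 7 with a filter at 20 CPM and without zdna3, 8 with no filter, 11 (8 higher) without zdna2 and 39 (39 higher) on the deposited scale, where all genes shift by 0.196. Leaving out 1 library gave 1 to 5 genes. It fell to 1 when zdna1 CC replicate 2 or either zdna1 CL library was left out, and reached 5 on leaving out zdna3 CC replicate 1. The causes were not tested.

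The count of 21 unequal genes became 6 with DESeq2, 297 on the deposited scale, 34 with a filter at 200 CPM, 2 with no filter, 8 without array weights, 40 with zdna4 added, and 6, 10 and 12 without zdna1, zdna2 and zdna3, whose fits hold fewer libraries. Leaving out 1 library gave 4 to 22. Summing the replicates that counts did not separate, an alternative chosen after seeing the data, gave 3 shared and 11 unequal genes.

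The adjusted p over 31 alternatives ran from 1.65e-10 to 0.23 for RMRP (called in 28), from 1.88e-21 to 1 for RN7SL1 (23) and from 8.55e-05 to 0.643 for THBS1 (24). No result changed its direction while called. Replicate numbers did not pair the libraries: correlations of deviations over 15 pairs of groups ran from -0.0715 to 0.0451, and the replicate block kept the same 3 calls. Depth limits what can be seen in the 3671 genes under 200 CPM, whose median SE was 0.259.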
